A study of Mus musculus with 10 samples.

Results

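The mitochondrial genome of the mouse encodes 37 genes, namely 2 rRNAs, 13 mRNAs and 22 tRNAs, and its transcripts were followed here in muscle stem cells (MuSCs, also called satellite cells) that had lost Trpm7, a channel for magnesium and other divalent cations. Members were all entries of the deposited count table whose symbol begins with "mt-". They numbered 20 of the 24608 gene symbols and comprised 2 rRNAs, 13 mRNAs and 5 tRNAs. Libraries came from Trpm7+/+; Pax7CreERT2/+; Rosa26YFP mice (control, n = 5) and Trpm7flox/flox; Pax7CreERT2/+; Rosa26YFP mice (Trpm7 cKO, n = 5). Both genotypes were adult animals on the C57BL6 background, and both carried the Cre driver and the YFP reporter and received tamoxifen (TMX), so that recombination was limited to cells that expressed Pax7 when TMX was given. Muscle was injured with cardiotoxin (CTX), 3000 YFP-positive cells were sorted per library 3 days later, and CEL-Seq2, which primes on poly(A) and reads the 3′ end of each transcript, was performed with molecular identifiers.

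Mitochondrial DNA is copied and transcribed inside the organelle by its own polymerases. Both strands are transcribed as long precursors, from which tRNAs are cut out between the rRNAs and mRNAs. The mRNAs encode core subunits of respiratory complexes I, III and IV and of ATP synthase, all of which also need nuclear-encoded subunits, and the rRNAs build the organelle's ribosome. Most mitochondrial mRNAs end in a poly(A) tail, which in some of them completes the stop codon. Activated MuSCs are known to raise their mitochondrial content on leaving quiescence.

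The 3′ ends of the mRNAs with the largest counts are shown because CEL-Seq2 reads this end. Capitals mark the stop codon, or the only part of it that the genome encodes in mt-Nd4 and mt-Cytb, which end in a single T. Sequences are those of the GENCODE transcripts on GRCm38, 5′ to 3′ in the sense of the gene.
mt-Nd1 (chrM:3648-3707, plus strand): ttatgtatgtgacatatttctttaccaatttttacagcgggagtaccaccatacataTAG
mt-Cytb (chrM:15229-15288, plus strand): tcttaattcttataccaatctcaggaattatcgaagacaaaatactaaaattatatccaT
mt-Nd4 (chrM:11485-11544, plus strand): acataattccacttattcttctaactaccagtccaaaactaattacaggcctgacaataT
mt-Nd5 (chrM:13506-13565, plus strand): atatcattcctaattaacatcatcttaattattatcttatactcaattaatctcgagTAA
mt-Nd6 (chrM:13552-13611, minus strand): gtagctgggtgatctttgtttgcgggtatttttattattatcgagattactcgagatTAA
mt-Nd5 and mt-Nd6 lie on opposite strands and overlap at their 3′ ends, from base 13552 to base 13565. The strand setting of the counting is not given in the sources used here, and how reads that reach into these bases were assigned is not known. Nor is it known whether reads from the opposite strand were counted for either gene.

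Several mitochondrial mRNAs are also present, base for base, in the nuclear genome. A run of 7 unprocessed pseudogenes on the minus strand of chromosome 1 (between 24611535 and 24616197, GRCm38) copies the stretch from mt-Co1 to mt-Nd4. The comparison of mt-Co3, a subunit of complex IV, with Gm28437 covered 783 bases and held 0 differences. That of mt-Atp6, a subunit of ATP synthase, with Gm10925 covered 678 bases and also held 0. The last windows of the read length, 81 bases, that each gene shares with its copy are printed once for both, in lower case throughout since no base differs.
mt-Co3 (chrM:9309-9389, plus strand) and Gm28437 (chr1:24613189-24613269, minus strand): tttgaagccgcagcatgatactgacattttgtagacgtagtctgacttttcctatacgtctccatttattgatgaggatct
mt-Atp6 (chrM:8524-8604, plus strand) and Gm10925 (chr1:24613974-24614054, minus strand): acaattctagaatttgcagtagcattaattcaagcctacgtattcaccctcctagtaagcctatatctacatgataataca

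Genes copied over nearly their whole length were almost empty in the count table. Of the 81-base windows of the whole gene, 99.9% of those of mt-Co3, 99.5% of those of mt-Co2 and mt-Atp6, 98.6% of those of mt-Nd4l and 97.8% of those of mt-Nd3 also occurred in nuclear transcripts. Over all 10 libraries these genes held 40 counts (mt-Co3), 377 counts (mt-Co2), 213 counts (mt-Atp6), 4 counts (mt-Nd4l) and 7 counts (mt-Nd3). In contrast, no window of mt-Nd1, mt-Nd6 or mt-Cytb was shared, and these held 101438, 52167 and 86640 counts. mt-Nd4 is copied over 61.3% of its windows but over none of its last 300 bases, and it held 42487 counts. mt-Co1, whose last 300 bases are shared in full, held 9237 counts. No window of mt-Atp8 occurred in an annotated nuclear transcript, and it held 1 count. Its end lies within the start of mt-Atp6. Whether the sequence between the copies of mt-Co2 and mt-Atp6 on chromosome 1 matches mt-Atp8 was not examined. How reads with several matches were counted is not given in the sources used here, and the part of shared sequence in these low counts was not tested. Only annotated nuclear transcripts were searched, so the shares are lower limits.

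**Figure D1:**
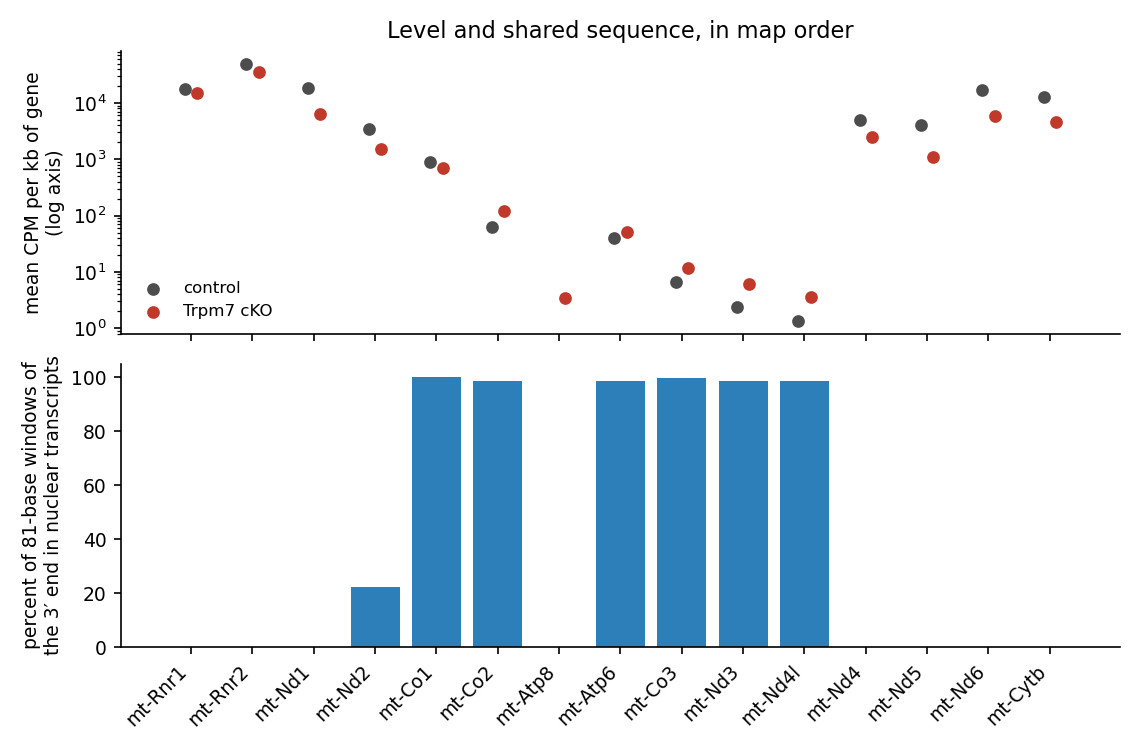
The upper panel plots the mean CPM (counts relative to the TMM-scaled library size) per kb of gene for the rRNAs and mRNAs in their order on the genome, on a log axis, for control (grey) and Trpm7 cKO (red) libraries (n = 5 each), and the lower panel the percent of 81-base windows of the last 300 bases that also occur in nuclear transcripts. Levels fall to between 1.32 and 118 CPM per kb from mt-Co2 to mt-Nd4l, where windows are shared with annotated nuclear transcripts except in mt-Atp8. The control mean of mt-Atp8 is 0 and is not drawn.

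The whole table set the frame for these genes. Control libraries held between 914353 and 1097707 counts and Trpm7 cKO libraries between 205980 and 581117, without overlap, so 3 counts, used as the limit of what a count of 0 allows, stood for 2.87 to 3.37 CPM in control and 4.80 to 15.5 CPM in Trpm7 cKO libraries. This limit covers counting error only. Trpm7 itself had 66 to 84 counts in control and 10 to 55 in Trpm7 cKO libraries and a log2 fold change of -0.10 (SE 0.20, edgeR quasi-likelihood test, adjusted p = 0.716). Where the deleted part of Trpm7 lies relative to the counted 3′ end was not examined here, so this value neither checks the deletion nor shows the level of intact mRNA. Of all 7753 genes tested, 24.5% were higher and 24.2% lower in Trpm7 cKO libraries at an edgeR adjusted p below 0.05, the call also used for the markers. Markers of other cells moved with genotype. The summed level of 25 leukocyte markers was 281 to 516 CPM in control and 1248 to 5139 CPM in Trpm7 cKO libraries, and 19 of the 19 tested were higher. Endothelial markers (6.18 to 73.0 against 126 to 661 CPM, 3 of 3 tested higher), fibroadipogenic markers (1406 to 2553 against 2670 to 5168 CPM, 6 of 7 higher), smooth muscle markers (398 to 636 against 841 to 1221 CPM, 2 of 2 higher) and erythroid markers (1.91 to 173 against 142 to 3140 CPM, 3 of 3 higher) stood in the same direction. Schwann cell markers, of which 0 were tested, summed to 2.06 to 6.74 CPM and 14.2 to 134 CPM. Mature myofibre markers were at 542 to 786 CPM in control and 167 to 256 CPM in Trpm7 cKO libraries (4 of 5 lower), and the 15 MuSC and myogenic markers at 3272 to 3817 and 2893 to 5321 CPM (2 of 14 tested lower, 7 higher). No marker with an entry in the count table was at 0 in all libraries. Entries existed for 11 of the 12 mature myofibre markers, for 4 of the 5 erythroid markers and for every marker of the other lists.

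Mitochondrial transcripts took a smaller share of the counts in Trpm7 cKO MuSCs, and the mRNAs showed this more than the rRNAs. Together the 20 genes made up 16.1%, 12.0%, 15.4%, 16.3% and 16.5% of all counts in control replicates 1 to 5 and 9.09%, 9.05%, 9.20%, 8.82% and 10.6% in Trpm7 cKO replicates 1 to 5. The groups did not overlap, with means of 15.3% ± 1.85 and 9.35% ± 0.711 (SD, n = 5 each). In bulk samples, fewer cells of a type and less RNA per cell cannot be told apart.

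The mRNAs accounted for 6.98%, 3.93%, 6.64%, 7.45% and 4.44% of all counts in control libraries. In Trpm7 cKO libraries they accounted for 3.92%, 2.80%, 1.75%, 1.97% and 1.21%. The groups touched, control replicate 2 lying just above Trpm7 cKO replicate 1, and the means differed 2.53-fold (5.89% ± 1.59 against 2.33% ± 1.06, SD, n = 5 each). Of these mRNA counts, mt-Nd1, mt-Nd2, mt-Nd4, mt-Nd5, mt-Nd6 and mt-Cytb held 96.8% to 98.1% in control and 91.1% to 96.3% in Trpm7 cKO libraries. The mRNA sum therefore says little about the subunits of complex IV and ATP synthase. The rRNAs accounted for 9.14%, 8.10%, 8.79%, 8.87% and 12.0% in control and 5.17%, 6.24%, 7.45%, 6.84% and 9.39% in Trpm7 cKO libraries. Here the groups overlapped, and the difference of the means (9.39% ± 1.53 against 7.02% ± 1.57) was -2.37 percentage points. The 5 tRNAs reached 0.0038% of all counts at most. Sums over members were not tested, since the members were chosen with results known.

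Ratios within the mitochondrial transcripts do not depend on how libraries are scaled. They do depend on how well priming on poly(A) captures each RNA, which was not examined here, so they are ratios of counts and not of amounts. The rRNA-to-mRNA ratio was 1.31, 2.06, 1.32, 1.19 and 2.71 in control and 1.32, 2.23, 4.27, 3.47 and 7.75 in Trpm7 cKO libraries. Trpm7 cKO replicates 3, 4 and 5 lay above every control library, whereas replicates 1 and 2 lay inside the control range. Library 5 of each genotype had the highest ratio of its group. Per sorted cell, control libraries held 20.1 ± 6.69 mRNA counts and 31.4 ± 4.15 rRNA counts, and Trpm7 cKO libraries held 3.65 ± 2.45 and 9.43 ± 2.81 (SD, n = 5 each), beside 336 ± 26.3 and 143 ± 55.9 counts of all genes.

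**Figure D2:**
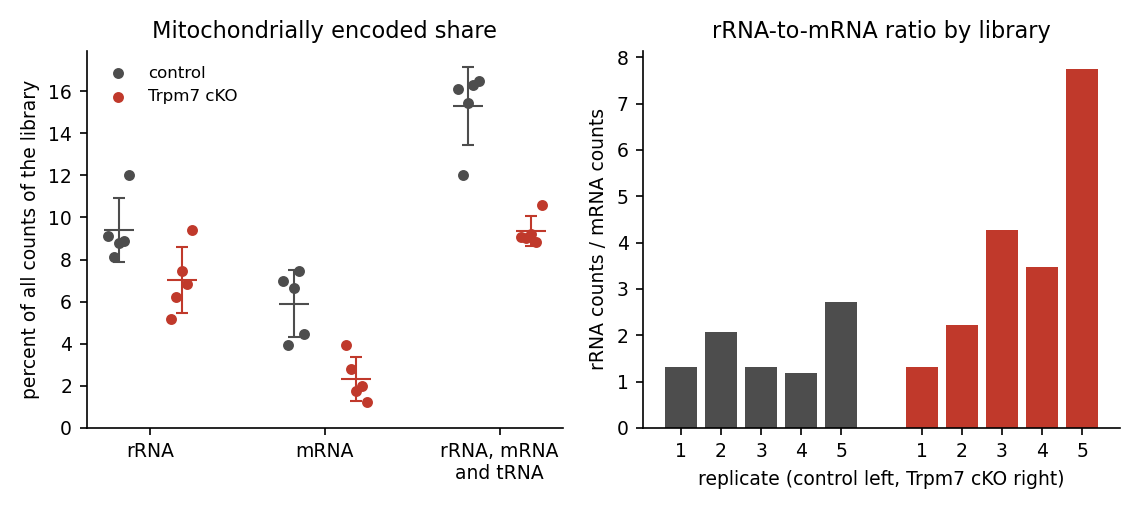
The left panel plots rRNA, mRNA and all mitochondrial transcripts as a percent of all counts, 1 point per library, with mean and SD for control (grey) and Trpm7 cKO (red) libraries (n = 5 each). The right panel gives the ratio of rRNA to mRNA counts in each library, which reaches 7.75 in Trpm7 cKO replicate 5 and 2.71 in control replicate 5.

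To ask which of the genes differed between genotypes, all genes with enough counts were tested together. Of the 20 members, 12 passed the filter on low counts, namely both rRNAs, 9 mRNAs and 1 tRNA. mt-Atp8, mt-Co3, mt-Nd3, mt-Nd4l and 4 tRNAs did not. Among the 12, 6 were lower in Trpm7 cKO MuSCs at an adjusted p below 0.05 (edgeR quasi-likelihood test), against 24.2% of the 7753 genes tested, and all 6 were mRNAs. Only 1 of the 12 was higher, against 24.5% of all genes tested. A log2 fold change below -1.5 in addition was found for 3, against 3.53%, and all control libraries lay above all Trpm7 cKO libraries in CPM for 3, against 17.9%. The median log2 fold change was -1.17 over the 9 tested mRNAs and -0.37 over both rRNAs, while it was -0.01 over all genes tested.

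This split held under some scalings between libraries and changed under others. With RLE factors, or with library sizes taken without the mitochondrial genes, 6 were lower and 1 higher. Total counts alone gave 7 lower and 1 higher. Scaled on the MuSC markers, which moved the median of all genes to -0.24, 8 were lower and 0 higher (0 higher also at an unadjusted p below 0.05). Without scaling, as counts per sorted cells with a median of -1.15, 10 were lower and 0 higher (again 0 at an unadjusted p). Scaled on the 13 mitochondrial mRNAs, with a median of 1.38, 0 were lower (0 at an unadjusted p) and 6 higher. This scaling divides by members themselves, so a fall common to the mRNAs cannot appear in it. With the mean leukocyte marker level as a covariate, 0 were lower and 0 higher (edgeR, 1 each at an unadjusted p below 0.05). That covariate did not overlap between the genotypes, so that genotype and leukocyte markers cannot be told apart in this fit, and the SE of mt-Nd1, for example, rose from 0.25 to 0.68.

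Of the complex I subunits, 5 were tested and all 5 were lower. mt-Nd5 was at 8785, 4994, 8003, 9977 and 5264 CPM in control replicates 1 to 5 and at 2873, 2707, 1433, 1691 and 1208 CPM in Trpm7 cKO replicates 1 to 5. The groups did not overlap, and mt-Nd5 was 3.72-fold lower in Trpm7 cKO MuSCs (log2 fold change -1.89, SE 0.26, edgeR adjusted p = 1.16e-05). It was the only member past both thresholds whichever library was left out (-2.07 to -1.75).

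mt-Nd1 was at 21353, 10605, 19590, 21724 and 14007 CPM in control and at 9583, 6537, 4878, 5447 and 3566 CPM in Trpm7 cKO libraries. The groups did not overlap (log2 fold change -1.54, SE 0.25, edgeR adjusted p = 4.98e-05). mt-Nd6, the only mRNA encoded on the other strand, was at 10426, 6037, 9959, 11756 and 6468 CPM in control and at 5240, 3789, 2306, 2565 and 1579 CPM in Trpm7 cKO libraries. These groups did not overlap either, and the log2 fold change was -1.52 (SE 0.29, edgeR adjusted p = 4.37e-04). Since the strand setting is not given, the counts of mt-Nd6 cannot be assigned to its own strand. Counted as 1 entry because of their overlap, mt-Nd5 and mt-Nd6 had a log2 fold change of -1.68 (SE 0.27, edgeR adjusted p = 7.7e-05). When control replicate 1, 3 or 4 or Trpm7 cKO replicate 3 or 5 was left out, mt-Nd1 and mt-Nd6 stayed below the adjusted p threshold and came to between -1.49 and -1.36, so that mt-Nd5 alone lay beyond -1.5.

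mt-Nd2 was at 4306, 2271, 3908, 4660 and 2692 CPM in control and at 2441, 1856, 1304, 1156 and 1161 CPM in Trpm7 cKO libraries. Control replicate 2 lay below Trpm7 cKO replicate 1, and the log2 fold change was -1.17 (SE 0.23, edgeR adjusted p = 5.0e-04). mt-Nd4 was at 8248, 4129, 8049, 8672 and 5187 CPM in control and at 6102, 4068, 2446, 2562 and 1698 CPM in Trpm7 cKO libraries. It was the least reduced of the 5 tested complex I genes, and Trpm7 cKO replicate 1 lay above control replicates 2 and 5 (log2 fold change -1.02, SE 0.32, edgeR adjusted p = 0.0189). Without control replicate 4 its adjusted p was 0.0524 (log2 fold change -0.91) and without Trpm7 cKO replicate 4 it was 0.0751 (-0.93).

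mt-Cytb encodes cytochrome b, the only subunit of complex III made in the organelle. It was at 18437, 8407, 17200, 19101 and 10544 CPM in control and at 9419, 6329, 4216, 4125 and 2503 CPM in Trpm7 cKO libraries. Control replicate 2 lay below Trpm7 cKO replicate 1, and the log2 fold change was -1.47 (SE 0.33, edgeR adjusted p = 0.00246). In all 6 of these mRNAs, control replicates 1, 3 and 4 were above control replicates 2 and 5, and Trpm7 cKO replicates 1 and 2 were above replicates 3, 4 and 5. A common order means that these genes are not separate observations of the libraries.

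Of the complex IV and ATP synthase subunits, mt-Co1, mt-Co2 and mt-Atp6 were tested, and each shares most or all of its 3′ end with nuclear transcripts. mt-Co1, the catalytic subunit of complex IV, was at 1665, 1110, 1352, 1412 and 1367 CPM in control and at 1242, 1299, 1135, 739 and 965 CPM in Trpm7 cKO libraries. It missed the threshold (log2 fold change -0.36, SE 0.16, edgeR adjusted p = 0.0716), and passed it without control replicate 2 (adjusted p = 0.0458) or without Trpm7 cKO replicate 2 (adjusted p = 0.0446). mt-Co2, another core subunit of complex IV, had 81, 39, 30, 31 and 36 counts in control and 38, 39, 24, 34 and 25 counts in Trpm7 cKO libraries, that is 43.6 ± 19.6 CPM and 81.03 ± 28.8 CPM (SD, n = 5 each). Relative to the smaller totals it was the 1 member that was higher in Trpm7 cKO MuSCs (log2 fold change 0.79, SE 0.27, edgeR adjusted p = 0.0220). Without scaling, where differences in library totals remain, its log2 fold change turned to -0.44. The call was lost without control replicate 3 (adjusted p = 0.0537) or 4 (0.0508) and without Trpm7 cKO replicate 3 (0.0504) or 5 (0.0576). Its nuclear copy Gm28661, which matches it over 681 bases with 0 differences, held 1750 counts in all and had a log2 fold change of 0.95 (SE 0.34, edgeR adjusted p = 0.0369). Gm13341 on chromosome 2 shares 20.9% of the 81-base windows of mt-Co2 and held 5918 counts (log2 fold change 1.11, SE 0.23, edgeR adjusted p = 7.78e-04). Over the matching bases, reads of mt-Co2 and of these copies cannot be told apart.

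mt-Atp6 had 30, 15, 28, 36 and 27 counts in control and 25, 27, 12, 7 and 6 counts in Trpm7 cKO libraries. Its log2 fold change was 0.35 (SE 0.31, edgeR adjusted p = 0.382). The copy Gm10925 had 173, 8, 43, 267 and 18 counts in control and 14, 17, 11, 6 and 1 counts in Trpm7 cKO libraries. Control replicates 1 and 4 stood far above the other libraries, and the sum of gene and copy had a log2 fold change of -1.15 (edgeR adjusted p = 0.251). mt-Co3 had 1 to 7 counts per library, mt-Nd3 0 to 2, mt-Nd4l 0 to 1 and mt-Atp8 0 in 9 of the 10 libraries, all of which is too few to compare genotypes at this depth.

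Neither rRNA passed the test. mt-Rnr2, the rRNA of the large ribosomal subunit, held the most counts of the mitochondrial transcripts. It was at 80788, 64009, 74206, 75547 and 101621 CPM in control and at 38587, 45586, 61502, 51373 and 79468 CPM in Trpm7 cKO libraries. Control replicate 2 lay below Trpm7 cKO replicate 5, and the log2 fold change of -0.52 (SE 0.21) had an edgeR adjusted p of 0.0504. It passed when control replicate 2 (adjusted p = 0.0431) or Trpm7 cKO replicate 5 (0.0104) was left out. mt-Rnr1, the rRNA of the small subunit, was at 15220, 13462, 15954, 16563 and 21912 CPM in control and at 10301, 13892, 14723, 12222 and 20315 CPM in Trpm7 cKO libraries. The ranges overlapped widely (log2 fold change -0.22, SE 0.19, edgeR adjusted p = 0.370), and 1.96 SE on either side spanned -0.60 to 0.16, which does not show that the level was unchanged. For both rRNAs replicate 5 was the highest library in each genotype, unlike for the 6 mRNAs. The ratio of mt-Rnr2 to mt-Rnr1 was 4.56 to 5.31 in control and 3.28 to 4.20 in Trpm7 cKO libraries, without overlap.

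**Figure D3:**
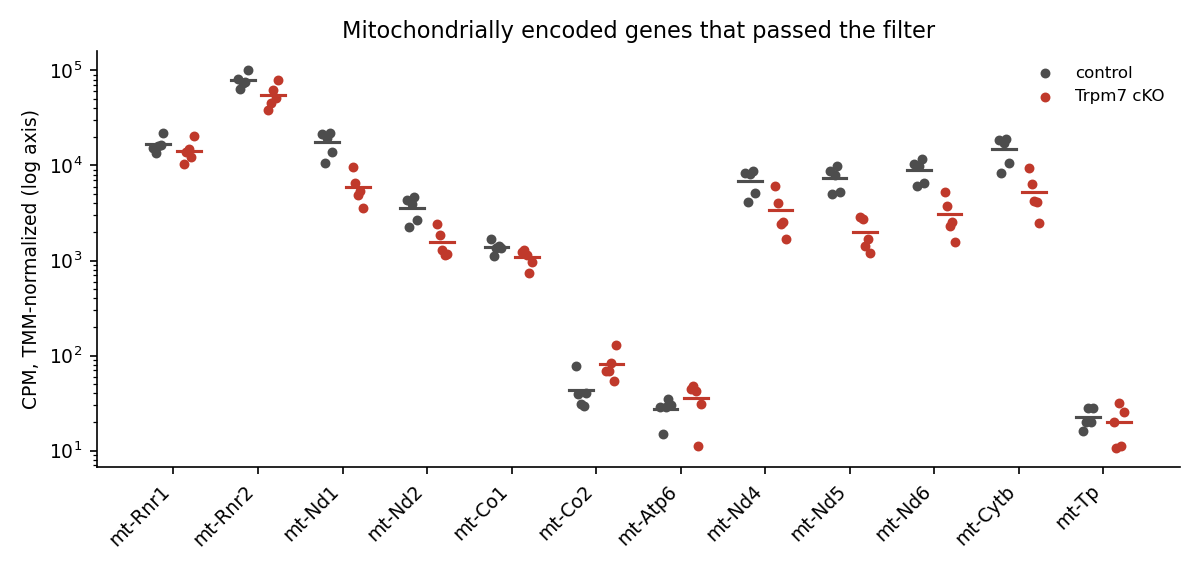
CPM (TMM-normalized, log axis) of the 12 mitochondrially encoded genes that passed the filter, with 1 point per library and a bar at the mean, for control (grey) and Trpm7 cKO (red) libraries (n = 5 each). The groups are apart for mt-Nd1, mt-Nd5 and mt-Nd6 and overlap for the other genes. mt-Co2 and mt-Atp6 lie higher in the Trpm7 cKO mean, an order that turns without scaling, where differences in library totals remain.

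Of the 22 tRNAs, 5 had an entry, and mt-Tp, the tRNA for proline, was the 1 tRNA that passed the filter. It is shown because it is encoded on the minus strand, opposite to most mRNAs, and held nearly all tRNA counts.
mt-Tp (chrM:15356-15422, minus strand): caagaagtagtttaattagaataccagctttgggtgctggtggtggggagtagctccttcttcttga
mt-Tp had 17, 20, 27, 21 and 25 counts in control and 11, 6, 9, 7 and 5 counts in Trpm7 cKO libraries, or 22.5 ± 5.23 CPM and 19.8 ± 9.11 CPM (SD, n = 5 each). The CPM ranges overlapped, and the log2 fold change was -0.35 (SE 0.31, edgeR adjusted p = 0.378). mt-Tn, mt-Tm, mt-Tc and mt-Te held 7, 3, 3 and 1 counts over all libraries, which no comparison can rest on. Priming on poly(A) does not capture mature tRNAs well, so these counts are no measure of tRNA levels.

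Among the mRNA counts themselves, the shares of single genes shifted. mt-Nd5 made up 11.5% to 13.3% of the mitochondrial mRNA counts in control and 7.76% to 10.1% in Trpm7 cKO libraries, without overlap. mt-Nd4 went the other way, at 11.0% to 11.8% and 13.2% to 16.5%, again without overlap. mt-Nd2 (5.74% to 6.04% against 6.30% to 9.03%), mt-Co1 (1.82% to 3.00% against 3.36% to 7.50%) and mt-Co2 (0.039% to 0.106% against 0.185% to 1.00%) were also higher in every Trpm7 cKO library. mt-Nd1, mt-Cytb and mt-Nd6 overlapped, at means of 29.0%, 24.1% and 14.9% in control and 27.0%, 22.9% and 13.5% in Trpm7 cKO libraries. Shares of a whole move against each other, so they are a description without a test. The ratio of mt-Nd6 to mt-Nd5, neighbours on opposite strands, was 1.18 to 1.24 in control and 1.31 to 1.82 in Trpm7 cKO libraries. With the strand setting unknown, this ratio may not separate the transcripts of these genes. In a fit scaled on the 13 mRNAs, mt-Co2 (log2 fold change 2.40, edgeR adjusted p = 3.9e-06), mt-Atp6 (1.73, 4.47e-04), mt-Rnr1 (1.37, 0.00657), mt-Co1 (1.11, 0.00783), mt-Rnr2 (1.095, 0.0393) and mt-Tp (1.08, 0.0442) were higher relative to the mRNAs. The median over all genes tested was 1.38 in this fit, and only mt-Co2 and mt-Atp6 lay above it. The 6 abundant mRNAs named above were between -0.47 and 0.36 and did not pass. They held at least 91.1% of the mRNA counts in every library, so their small values follow from the scaling itself.

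**Figure D4:**
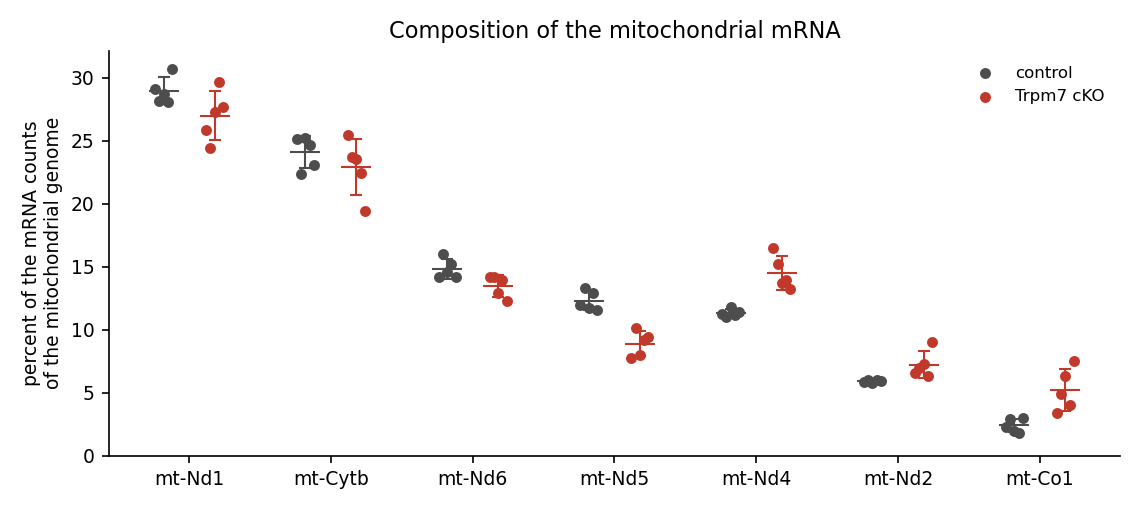
Percent of the summed mitochondrial mRNA counts taken by each of 7 genes, 1 point per library with mean and SD, for control (grey) and Trpm7 cKO (red) libraries (n = 5 each). The groups are apart for mt-Nd5 (higher in control) and for mt-Nd4, mt-Nd2 and mt-Co1 (higher in Trpm7 cKO) and overlap for mt-Nd1, mt-Cytb and mt-Nd6.

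Mitochondrial transcripts depend on nuclear genes that copy, transcribe, process and translate them. Of 86 such genes, 84 had an entry and 42 passed the filter. At an adjusted p below 0.05, 15 were lower in Trpm7 cKO MuSCs and 1 was higher, against the 24.2% and 24.5% given above for all genes, and 3 of the 15 were also below a log2 fold change of -1.5. The median log2 fold change was -0.35. Scaled on the MuSC markers 5 lay below -1.5, and without scaling 20 did, while with the leukocyte covariate the number of lower genes was 2 (edgeR). The median over all genes tested was -0.24 with MuSC marker scaling and -1.15 without scaling. Shares of all genes called were not computed under these alternatives, so these numbers do not set the nuclear list apart from other genes.

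In the transcription group, 3 of the 4 tested were lower. Tefm, an elongation factor of the mitochondrial RNA polymerase, was at 64.1, 43.1, 65.9, 76.1 and 31.5 CPM in control and at 12.6, 14.2, 3.50, 11.2 and 10.3 CPM in Trpm7 cKO libraries. The groups did not overlap (log2 fold change -2.32, SE 0.32, edgeR adjusted p = 6.33e-06). Tefm had 28 to 79 counts in control and 1 to 8 in Trpm7 cKO libraries, so its Trpm7 cKO values rest on few counts. Tfam, which packages mitochondrial DNA and starts its transcription, was at 91.9, 62.1, 101, 103 and 85.4 CPM in control and at 50.4, 44.4, 21.03, 38.4 and 5.16 CPM in Trpm7 cKO libraries, also without overlap (log2 fold change -1.28, SE 0.25, edgeR adjusted p = 3.38e-04). Mrpl12, a ribosomal protein also reported to bind the polymerase, changed least of the 3 (log2 fold change -0.93, SE 0.20, edgeR adjusted p = 7.93e-04). The polymerase Polrmt and the factor Tfb2m, with 87 and 77 counts in all, did not pass the filter.

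In the stability and polyadenylation group, 3 of 9 were lower. Lrpprc, which binds and stabilises mitochondrial mRNAs, was at 388, 302, 352, 401 and 297 CPM in control and at 99.0, 106, 84.1, 158 and 103 CPM in Trpm7 cKO libraries. The groups did not overlap, and the log2 fold change was -1.63 (SE 0.17, edgeR adjusted p = 2.66e-07). Grsf1, an RNA granule protein, was the least reduced (-0.57, SE 0.22, adjusted p = 0.0331). Mtpap, the mitochondrial poly(A) polymerase, was at 28.7 ± 5.96 and 40.1 ± 8.74 CPM (SD, n = 5 each) and missed the threshold (log2 fold change 0.53, edgeR adjusted p = 0.0546).

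Of the 5 tested genes of replication, Lig3, a DNA ligase that also acts in the nucleus, fell from 23.4 ± 3.39 to 6.30 ± 3.66 CPM (log2 fold change -1.96, SE 0.36, edgeR adjusted p = 1.51e-04). Lig3 had 18 to 30 counts in control and 1 to 5 in Trpm7 cKO libraries, so its Trpm7 cKO values rest on few counts. Ssbp1, the single-strand DNA binding protein, was also lower (log2 fold change -0.57, SE 0.19, edgeR adjusted p = 0.0180). Of the 14 of RNA processing, 1 was lower, Ptcd2 (-0.76, SE 0.19, adjusted p = 0.00266), and Mto1, a tRNA-modifying enzyme, was the 1 gene that was higher (0.60, SE 0.24, adjusted p = 0.0464). For decay it was 2 of 4, with Pnpt1, an exoribonuclease, at -0.61 (SE 0.20, adjusted p = 0.0140) and Rexo2, an oligoribonuclease, at -0.46 (SE 0.16, adjusted p = 0.0194). For translation it was 4 of 6, from Mrrf, which recycles ribosomes (-1.41, SE 0.25, adjusted p = 8.54e-05), to Tsfm, an elongation factor (-0.52, SE 0.19, adjusted p = 0.0283).

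**Figure D5:**
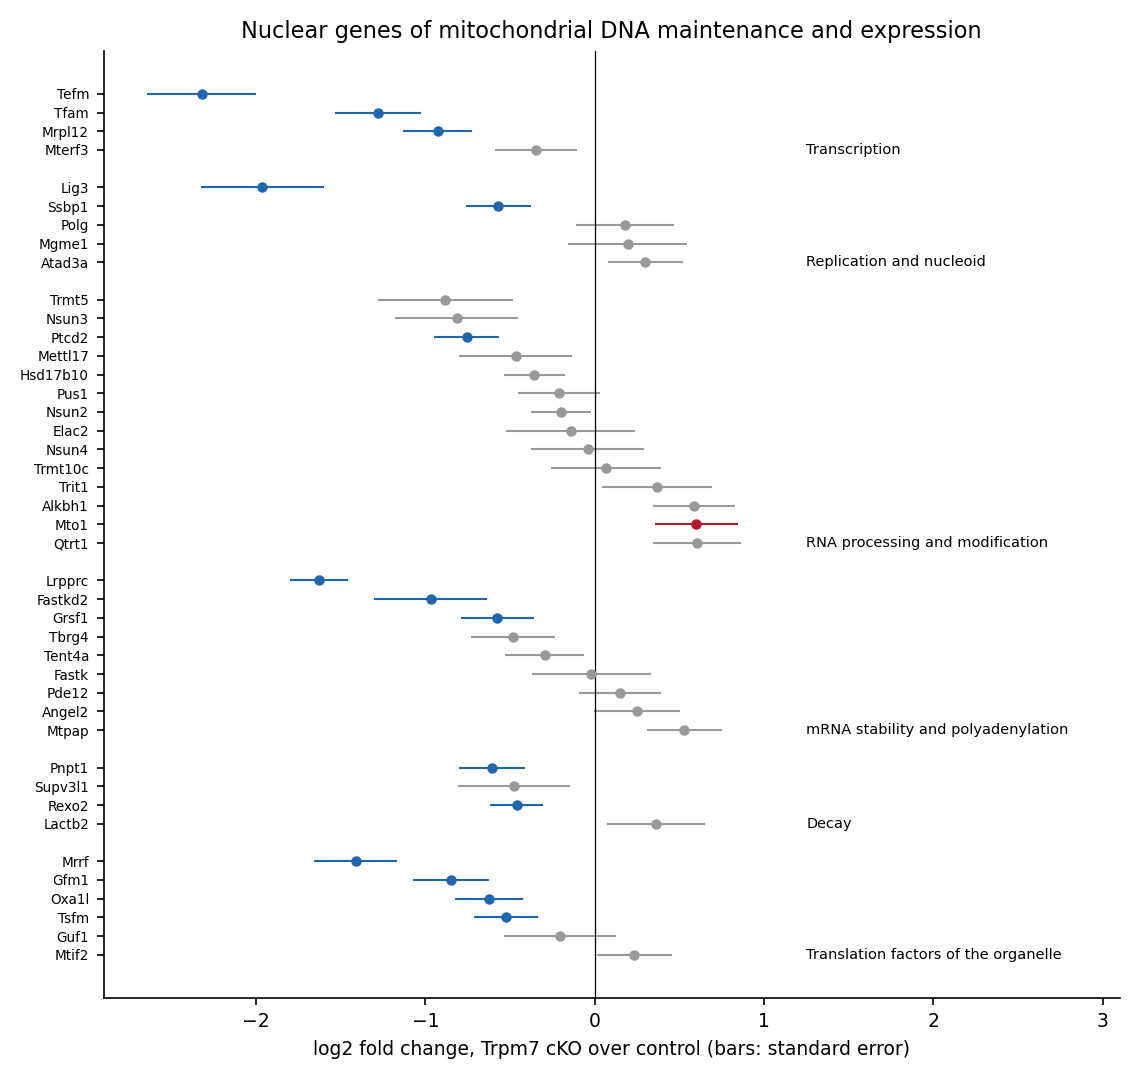
Log2 fold change (Trpm7 cKO over control, n = 5 each) of the 42 tested nuclear genes of mitochondrial DNA maintenance and expression, by group, with bars of 1 standard error. Blue points are lower and the red point higher at an edgeR adjusted p below 0.05, and grey points did not pass, with Tefm at -2.32, Lig3 at -1.96 and Lrpprc at -1.63 the lowest.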

How the data were processed

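MuSC RNA was sequenced from 5 control and 5 Trpm7 cKO libraries. The authors extracted molecular identifiers with UMI-tools 1.1.4, trimmed reads with Trim Galore 0.6.10, aligned them to GRCm38 with HISAT2 2.2.1, counted genes with featureCounts 2.0.6 and removed duplicates (versions from the submitters' processing notes), so the deposited values are whole-number counts without normalization. The annotation release, strand setting and treatment of reads with several matches are not given in the sources used here. The table lists 24620 entries, and of 12 duplicated symbols the entry with the larger total was kept.

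Counts were tested with edgeR 4.0.16 in R 4.3.3 (filterByExpr, minimum count 10 and minimum total 15; TMM; robust quasi-likelihood fit; genotype as the only term; Benjamini-Hochberg over the 7753 genes tested). A stricter call also needed a log2 fold change beyond 1.5, as in the study's DESeq2 1.30.1 analysis. The fit was tested on simulated data. Standard errors come from the fit. Shared sequence was counted in 81-base windows of GENCODE M21 transcripts. The members and lists were chosen with earlier results of these data known. Named were all members with a count, Trpm7, nuclear copies beside the gene they match, and of the nuclear list 8 regulators where tested and the lowest and highest called gene of each group.

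Libraries were grouped by their labels. The labels name no separate animals, and Trpm7 cKO replicates 4 and 5 share a label number of unstated meaning, so p-values measure the spread between these libraries. No 2 libraries of the same genotype matched within counting noise. Alternatives were DESeq2 1.42.0, voom of limma 3.58.1, other scalings, no filter, thinning to 205980 counts, a leukocyte covariate, a replicate block, libraries left out and replicates 4 and 5 summed. Sums of gene and nuclear copy and of mt-Nd5 and mt-Nd6 were chosen after seeing the data.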

Additional observations from a re-analysis of the deposited data

Results flagged for a closer look

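For 5 values, 1 library was separated from the nearest library of the same genotype by a gap of more than 0.71 of the group's range (Dixon's 95% value for 5 samples). Over the 38 groups examined, chance flags about 1 in 20. Control replicate 1 had 77.5 CPM of mt-Co2, the nearest control library having 40.4. Control replicate 2 had 12.0% of its counts from mitochondrial transcripts, the nearest having 15.4%. Trpm7 cKO replicate 5 had 10.6%, the nearest having 9.20%. Control replicate 5 had 12.0% of its counts from the rRNAs, the nearest having 9.14%. In control replicate 1 the ratio of mt-Rnr2 to mt-Rnr1 was 5.31, the nearest being 4.75.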

How the results depend on the processing

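Numbers of members that were lower, higher, and lower beyond a log2 fold change of -1.5 were 6, 1 and 3. They were 0, 6 and 0 when scaled on the 13 mRNAs, 10, 0 and 9 without scaling, and 0, 0 and 0 with the leukocyte covariate. With total counts alone, or with Trpm7 cKO replicates 4 and 5 summed, the last number was 1, and with MuSC marker scaling 0 were higher. Leaving out 1 library gave 5 to 8, 0 to 2 and 1 to 4. For the nuclear list (15, 1 and 3), 36, 0 and 20 were found without scaling and 2 lower and 0 higher with the leukocyte covariate (edgeR, 1 higher at an unadjusted p below 0.05). MuSC marker scaling gave 0 higher and 5 beyond -1.5, and the number higher was 3 with RLE factors, 4 with total counts alone or limma-voom, and 0 with DESeq2 (4 at an unadjusted p below 0.05). Leaving out 1 library gave 11 to 16, 0 to 3 and 3 to 5. The median over all genes tested was -1.15 without scaling, -0.24 with MuSC marker scaling and 1.38 when scaled on the 13 mRNAs. Shares of all genes called were not computed under the alternatives, so no such share stands beside these numbers. The causes were not tested.

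Directions turned when scaled on the 13 mRNAs for mt-Rnr1 (1.37), mt-Rnr2 (1.095), mt-Nd2 (0.29), mt-Co1 (1.11), mt-Nd4 (0.36) and mt-Tp (1.08), and with the leukocyte covariate for mt-Nd2 (0.26), mt-Co1 (0.44), mt-Nd4 (0.87), mt-Nd6 (0.24) and mt-Cytb (0.46). They turned without scaling for mt-Co2 (-0.44) and mt-Atp6 (-0.82), and for mt-Atp6 summed with its nuclear copy (-1.15). Without a filter on low counts mt-Rnr2 (-0.74, edgeR adjusted p = 1.74e-06), mt-Rnr1 (-0.44, 0.0113) and mt-Co1 (-0.57, 0.00121) passed and mt-Nd4 did not (0.065). mt-Rnr2 passed in the lower direction under 11 of 25 alternatives, and in the higher direction when scaled on the 13 mRNAs. Shares and ratios kept their direction under each alternative run for them.

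Both genotypes carry the replicate numbers 1 to 5, but the numbers mark different libraries. Same-numbered libraries deviated with correlations of -0.12 to 0.18. Only control replicate 5 correlated best with the library of its own number in the other genotype. With the replicate block, 7 members were lower, 1 higher and 4 beyond -1.5, mt-Rnr2 passed (-0.55, edgeR adjusted p = 0.0318), and 0 genes of the nuclear list were higher (3 at an unadjusted p below 0.05).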
